A study of Mus musculus with 4 samples.

Results

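The 277 genes described here are those that have no Ensembl identifier in the kidney expression table and were assembled from the RNA-sequencing reads. They were chosen by their identifier alone, as all 277 such rows among the 54078 genes of the table. The rule reads no expression value, but these genes were assembled from reads, whereas annotated genes are listed at any level. At 0 reads in all libraries were 26810 of the 53801 annotated genes and 17 of the 277 assembled genes. Each is named below as an assembled gene with the number that the table gives it. The RNA came from kidneys of adult male mice of a strain labelled C57BL/6 x 129S4/SvJae, while the study's methods give a C57BL/6 background for both parent lines and WT littermates as controls, at day 3 after bilateral ischemia of 30 min and reperfusion (bI/R 3D). All mice carried Apela flox/flox, a conditional allele of the gene for the peptide hormone Elabela. The KO mice (Apela Ksp KO) also carried Cre under the Ksp-cadherin promoter, which is active in renal tubular epithelial cells, so other kidney cells keep the gene, and the WT mice carried no Cre. Each group had 2 libraries, WT1 and WT2 or KO1 and KO2, and each library was a pool of RNA from 3 mice, so n counts pools. The design text gives adipose tissue as the RNA source, whereas the title and the sample labels give kidney. No library came from uninjured kidneys, and all comparisons are between injured WT and injured KO kidneys.

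Tissue and genotype were checked first. The summed FPKM (fragments per kilobase of gene length, scaled for sequencing depth) of the proximal tubule genes Lrp2, Slc34a1, Slc5a2 and Kap was between 5262 and 10088 per library, and that of the adipose genes Adipoq, Plin1, Ucp1 and Cfd was between 0.0755 and 0.387. Germ cell genes summed to 0.0817 to 0.27, genes of the thick limb and collecting duct to 1013 to 1571, hemoglobin genes to 58.1 to 159.9 and macrophage genes to 70.3 to 194.5, the last being highest in WT2. For Apela itself, FPKM was 5.27 in WT1, 4.57 in WT2, 0.536 in KO1 and 0.245 in KO2, with both KO values far below both WT values. Most of the proximal tubule sum was Kap, at 8976, 4387, 6038 and 9316 in WT1, WT2, KO1 and KO2. The other 3 proximal tubule genes were lower in both KO pools than in both WT pools. Slc34a1, a phosphate transporter, had 897.8 and 688.7 in WT and 365.1 and 608.96 in KO, Slc5a2, a glucose transporter, had 113.7 and 95.3 against 56.9 and 77.1, and Lrp2, the endocytic receptor megalin, had 99.9 and 91.04 against 70.4 and 76.3. Of the 4 genes, 2 passed an unadjusted p under 0.05 and 0 passed an adjusted p under 0.05 in limma, where 3.03% of all genes tested were lower and 3.29% higher at an unadjusted p under 0.05, and the median log2 fold change of the list was -0.51. The part of this difference in the levels of assembled genes was not tested. In bulk RNA, fewer cells of a type and less RNA per cell cannot be told apart.

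Genome annotation is never complete, and transcripts assembled from reads fill several kinds of gap, among them transcripts far from any known gene and the 3 kinds given here. The first is made of insertions of endogenous retroviruses, the remains of retroviruses that entered the germ line, which most gene catalogues leave out. They carry gag (the core proteins), pol (protease, reverse transcriptase, RNase H and integrase) and env (the coat protein), and in adult tissue they are mostly kept silent by DNA methylation and by repressive chromatin that KRAB zinc finger proteins direct to them. The second is made of parts of known genes, such as extended ends and upstream transcripts. The third is made of known genes on alternative scaffolds, which are corrected or strain-specific versions of a stretch of a chromosome.

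By position, 188 of the 277 assembled genes lay on chromosomes of GRCm38, 86 lay on 31 alternative scaffolds and 3 on unplaced scaffolds. Chromosome 17 held 22, chromosome 4 held 18 and chromosome 5 held 17, and 5 lay on chromosome Y. They were 234 to 14837 bases long with a median of 1534 bases, and 76 of them formed a single block without an intron. By the protein domains that the table names, 37 held a retroviral domain, 5 a KRAB box, 1 the domains of a LINE-1 element and 80 another domain, while 154 had none. All but 1 of the 37 retroviral genes lay on chromosomes, whereas 73 of the 80 genes with other cellular domains lay on alternative scaffolds. Of the 154 without a domain, 143 lay on chromosomes.

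As a group the assembled genes held 0.232% and 0.227% of the reads on genes in WT1 and WT2 and 0.234% and 0.267% in KO1 and KO2. The groups did not overlap, with means of 0.23% for WT and 0.25% for KO, but the two-sided exact permutation p of 0.33 is the smallest that 2 pools against 2 allow. Without the single most read gene, the difference of the means was 0.0149 percentage points in place of 0.0205, the groups overlapped and the exact p was 0.67. As a share of summed FPKM they also overlapped, with the same p, and without KO2 the difference of the means was 0.00405. Without the 3 genes that 1 pool nearly lacks, described below, the groups stayed apart, with a difference of 0.0222 and an exact p of 0.33. The 5 most read of them held 37.0% of these reads. The test below took genes whose FPKM averaged 0.5 or more, which 214 of the 277 did, and 231 had a read in every library.

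Sequence from RefSeq was available for the start sites of some of them. Of the 191 assembled genes that were not on alternative scaffolds, 73 overlapped, on either strand, a RefSeq gene whose name and identifier are absent from the table, and 15 overlapped on the same strand a gene of GENCODE M21 that is absent from it. For 7 of the 191, a RefSeq start lay within 50 bases of the assembled start on the same strand. The promoter windows of 4 of these are printed here to show where the starts of an assembled gene and of a RefSeq gene lie together, namely for both KRAB genes among the 7 and for 2 without a domain, a choice made after their values had been seen. They are from RefSeq on GRCm38.p6 and run from 250 bases before to 50 bases after the RefSeq start, 5′ to 3′, with the bases that belong to the assembled gene in capitals. The first is the window of assembled gene 114, the second that of 69, the third that of 80 and the fourth that of 141.
Gm32800, chr2:167847793-167848092, minus strand: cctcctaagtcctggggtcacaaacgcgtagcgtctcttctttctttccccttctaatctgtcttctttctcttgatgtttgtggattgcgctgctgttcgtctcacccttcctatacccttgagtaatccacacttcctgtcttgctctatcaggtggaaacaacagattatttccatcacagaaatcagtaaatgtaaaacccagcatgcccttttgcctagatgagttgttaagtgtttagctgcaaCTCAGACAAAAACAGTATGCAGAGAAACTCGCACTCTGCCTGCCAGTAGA
Gm52290, chr17:21473564-21473863, plus strand: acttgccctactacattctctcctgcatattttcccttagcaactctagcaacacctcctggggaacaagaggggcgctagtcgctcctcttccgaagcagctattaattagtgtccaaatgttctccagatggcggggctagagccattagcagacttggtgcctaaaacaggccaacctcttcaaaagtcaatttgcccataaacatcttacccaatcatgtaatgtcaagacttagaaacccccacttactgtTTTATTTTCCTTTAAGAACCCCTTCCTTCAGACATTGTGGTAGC
Gm7072, chr17:22314793-22315092, minus strand: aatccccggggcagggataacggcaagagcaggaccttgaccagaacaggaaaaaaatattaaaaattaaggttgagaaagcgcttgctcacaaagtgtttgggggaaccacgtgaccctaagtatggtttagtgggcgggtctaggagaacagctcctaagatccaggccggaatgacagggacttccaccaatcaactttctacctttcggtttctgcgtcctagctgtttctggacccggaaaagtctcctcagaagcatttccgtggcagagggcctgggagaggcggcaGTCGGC
Zfp33b, chr5:104571422-104571721, plus strand: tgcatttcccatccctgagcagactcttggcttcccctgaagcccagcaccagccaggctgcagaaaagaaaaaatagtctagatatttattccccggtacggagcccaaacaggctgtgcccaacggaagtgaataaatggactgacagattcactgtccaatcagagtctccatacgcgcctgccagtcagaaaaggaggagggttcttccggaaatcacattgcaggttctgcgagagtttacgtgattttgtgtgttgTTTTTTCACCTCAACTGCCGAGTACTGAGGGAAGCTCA

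The start of assembled gene 114 fell 0 bases from the RefSeq start of Gm32800, and its last 50 bases of window are all inside the gene. Assembled gene 141 began 12 bases after the start of Zfp33b and gene 69 began 6 bases after that of Gm52290, whereas gene 80 began 44 bases after that of Gm7072. The letters TATAAA, searched on the printed strand, occurred in 0 of the 7 windows and in 8.32% of all 32851 mouse promoter windows. CCAAT, searched on both strands, occurred in 4 of the 7 and in 37.4% of all windows. Both searches describe these windows only.

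Assembled genes 80 (chr17:22285871-22314798, minus strand) and 141 (chr5:104571684-104584620, plus strand) both name a KRAB box and a zinc-finger double domain. Gene 80 had an FPKM of 3.49 and 2.90 in WT and of 3.75 and 3.68 in KO. Gene 141 had 2.47 and 2.35 in WT and 2.33 and 2.09 in KO. Levels of both differed little between pools, and their log2 fold changes of 0.19 ± 0.14 and -0.11 ± 0.14 (SE, n = 2 pools per group) had unadjusted limma p-values of 0.233 and 0.492. Gene 114 (chr2:167838997-167847842, minus strand) had no named domain and was the most abundant of the 7, at 11.8 and 4.34 in WT and 14.0 and 7.23 in KO, where the pools of 1 group differed more than the groups. Gene 69 (chr17:21473820-21479775, plus strand) had 4.08 and 4.85 in WT and 5.90 and 6.30 in KO. The KO pools of gene 69 lay above the WT pools, with a log2 fold change of 0.41 ± 0.13 and an unadjusted p of 0.0305. Its adjusted p was 0.785. Genes 80, 69, 114 and 141 were picked for their start sites after the values had been seen.

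Of the 12 assembled genes with the highest mean FPKM, 9 held a retroviral domain, whereas the median of the mean FPKM was 1.52 for the retroviral genes and 1.39 for those without a domain. By their domains, 29 of the 37 were of the gammaretroviral type, to which murine leukemia virus belongs, 4 were of the betaretroviral type, to which mouse mammary tumor virus and the IAP elements belong, and 4 named only domains that both types share. Domains of gag were named in 24, of pol in 24 and of env in 13, and 6 named all 3. The filter was passed by 27. Reads on the 37 made up 0.119% and 0.128% of the reads on genes in WT1 and WT2, and 0.126% and 0.163% in KO1 and KO2. Without the 3 that a single pool nearly lacks, described below, these shares were 0.0933%, 0.0861%, 0.113% and 0.112%, so that the rank of KO2 rests on those 3.

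**Figure D1:**
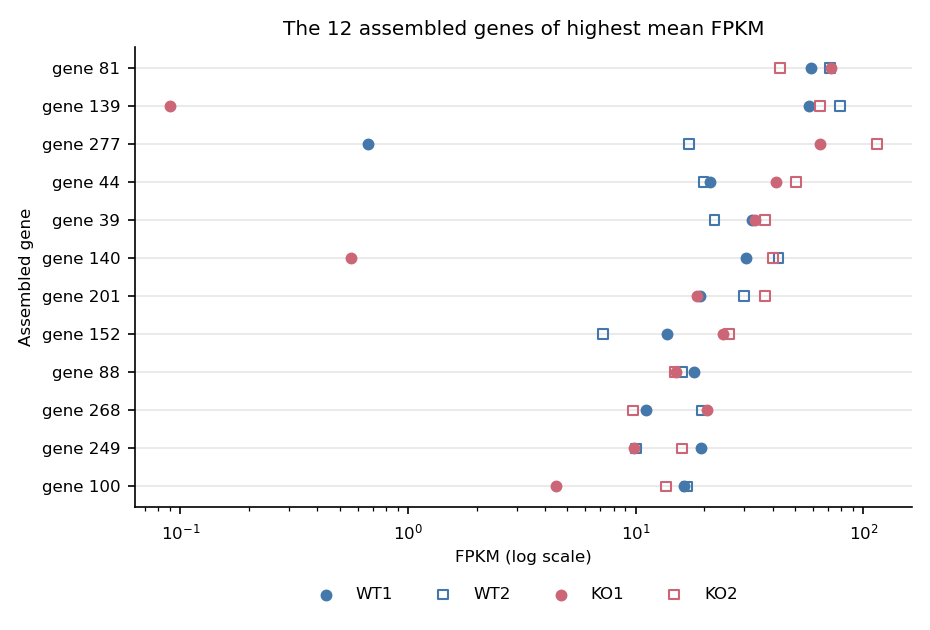
FPKM of the 12 assembled genes with the highest mean, on a log scale, with 1 symbol per library (filled circles for the first pool and open squares for the second pool, WT in blue and KO in red). Genes 139 and 140 fell below 1 FPKM in KO1 and gene 277 in WT1, while the other 9 stayed above 4 in every library.

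The highest mean was that of assembled gene 81 (chr17:34996707-35000329, minus strand), which names an env domain and lies 658 bases from the gene Vars, which encodes valyl-tRNA synthetase and is on the other strand. It had an FPKM of 58.6 and 71.1 in WT and of 72.2 and 43.0 in KO. The pools overlapped, and the log2 fold change was -0.21 ± 0.28. Vars itself had an FPKM between 21.1 and 28.3 in the 4 libraries. Assembled gene 39 (chr13:67884935-67893573, minus strand), a block of 8639 bases that names gag, pol and env domains, took the most reads of all assembled genes. It had an FPKM of 32.4 and 22.2 in WT and of 33.3 and 37.0 in KO, so that the pools did not overlap but the lower KO pool was close to the higher WT pool, with an unadjusted p of 0.137. Assembled gene 88 (chr18:30266261-30272199, plus strand), with gag and RNase H domains, ends 548 bases before the gene Pik3c3, a lipid kinase of autophagy, on the same strand. Gene 88 had 18.1 and 16 in WT and 15 and 14.8 in KO, and its unadjusted p was 0.189. Pik3c3 had 6.98, 6.92, 6.84 and 7.60 in WT1, WT2, KO1 and KO2, with overlapping groups.

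Assembled genes 139 and 140 were nearly absent from a single pool. They overlap by 2536 bases on the plus strand of chromosome 5 (chr5:24215306-24222085 and chr5:24216324-24218859), and name an env domain and gag and RNase H domains respectively. Gene 139 had an FPKM of 57.6 and 78.7 in WT and of 64.6 in KO2, but of 0.0904 in KO1, from 5 reads against 3063 to 4481 in the other pools. Gene 140 had 30.4 and 42.4 in WT and 40.1 in KO2, but 0.561 in KO1, from 21 reads. KO2 lay inside or beside the WT range for both, and 1 KO pool set the fitted log2 fold changes of -3.45 ± 2.24 and -2.47 ± 1.74. How reads on the bases they share were divided between them is not given in the sources used here.

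Assembled gene 277 (chrY:58849788-58852865, minus strand), with protease, RNase H and integrase domains, was nearly absent from WT1. It had an FPKM of 0.664 in WT1, 17.1 in WT2, 64.5 in KO1 and 114 in KO2, from 21, 579, 2122 and 3655 reads. Both KO pools lay above both WT pools, and WT1 and WT2 differed by a larger ratio than KO1 and KO2. The log2 fold change was 4.25 ± 1.32 with an unadjusted p of 0.0263 and an adjusted p of 0.785, and it was 2.30 without WT1 and 6.21 without WT2. The Y-linked genes Ddx3y, Eif2s3y, Uty and Kdm5d did not vary in this way. Summed over the Y-linked list their FPKM was 29.1, 24.7, 27.8 and 24.4 in WT1, WT2, KO1 and KO2. Of the other assembled genes on chromosome Y, genes 273, 274 and 275 passed the filter and had overlapping pools, with log2 fold changes of -0.36 ± 0.73, 0.55 ± 0.42 and 0.20 ± 0.43.

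Single pools that lack a gene were rare in the rest of the table. A gene was counted as nearly absent from a pool where its FPKM was under 5% of that in each other pool and the others had at least 50 reads each. That held for 3 assembled genes, namely 139, 140 and 277, and for 1 of the 53801 annotated genes. The latter was Gm42031 on chromosome 8, which KO1 also nearly lacked, with 14 reads against 458 to 1186. Of the annotated genes, 33415 had 3 reads or fewer in every library, as had 29 of the 277 assembled genes, and so could not meet this rule. The reverse, a gene nearly confined to 1 pool, held for assembled gene 142 (chr5:109900626-109907649, plus strand), with 65 reads in WT1 and 0 in each other pool, and for the annotated gene Gm2026, with 53 reads in KO2. The strain label names a cross and the study's methods a single background, and the part of strain in these values was not tested.

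Assembled genes 44 and 152 were the abundant ones that were about 2-fold higher in KO without overlap of the pools. Both name only the gammaretroviral matrix protein p15. Gene 44 (chr14:32115304-32120532, minus strand) had an FPKM of 21.3 and 19.8 in WT and of 41.3 and 50.5 in KO, a ratio of 2.23. Its pools did not overlap, and the log2 fold change was 1.13 ± 0.15 with an unadjusted p of 0.000785 and an adjusted p of 0.466. Gene 152 (chr5:135623627-135628920, minus strand) had 13.8 and 7.17 in WT and 24.3 and 25.8 in KO, a ratio of 2.39, with a log2 fold change of 1.29 ± 0.31, an unadjusted p of 0.0109 and an adjusted p of 0.732. Gene 164, which also names only this domain (chr7:28259086-28261657, minus strand), had 0.919 and 0.972 in WT and 1.93 and 2.27 in KO, again without overlap. The nearest genes of 44 and 152, Oxnad1 at 12102 bases and Rhbdd2 at 3698 bases, both on the other strand, had a range of 6.60 to 7.43 and of 5.98 to 7.57 FPKM over the 4 libraries. In all, 10 assembled genes name p15 and nothing else, and 5 of them passed the filter. The other two of these 5 varied more between pools. Gene 127 had 1.97 and 0.848 in WT and 2.25 and 2.77 in KO, without overlap and with an unadjusted p of 0.0868, and gene 177 had 0.771 and 0.114 against 0.701 and 0.923, with overlap.

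Among the less abundant retroviral genes that passed the filter, 256 stood at the upper end and 128 and 150 at the lower end. Gene 24, with integrase and env domains, did not pass it. It had 0 and 0.0502 in WT and 0.878 and 1.01 in KO, from 0, 1, 17 and 19 reads. Gene 24 lies outside the rule for named genes and was picked after its values had been seen. Gene 256, the single retroviral gene on an alternative scaffold, spans 7544 bases in a single block with gag, pol and env domains. It had an FPKM of 0.190 and 1.09 in WT and of 4.75 and 6.04 in KO, with a log2 fold change of 2.49 ± 0.43 and an unadjusted p of 0.00288. Gene 145 (chr5:145253040-145262314, plus strand), with RNase H and integrase domains, had 0.879 and 0.269 in WT and 2.87 and 1.80 in KO. Genes 128 (chr4:15236590-15242230, minus strand) and 150 (chr5:122196059-122200140, minus strand) were lower in both KO pools. Gene 128 had 1.15 in each WT pool and 0.316 and 0.651 in KO, and gene 150 had 1.23 and 1.31 in WT and 0.293 and 0.769 in KO. KO1 was the lowest pool for both, as it was for 121, which had 1.86 and 1.78 in WT and 0.563 and 1.41 in KO, and for 100, the MLV-type integrase gene on chromosome 19 (chr19:38375022-38381945, plus strand), which had 16.3 and 16.8 in WT and 4.46 and 13.6 in KO. Gene 179 had 1.55 and 0.761 in WT and 0.491 and 0.667 in KO.

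**Figure D2:**
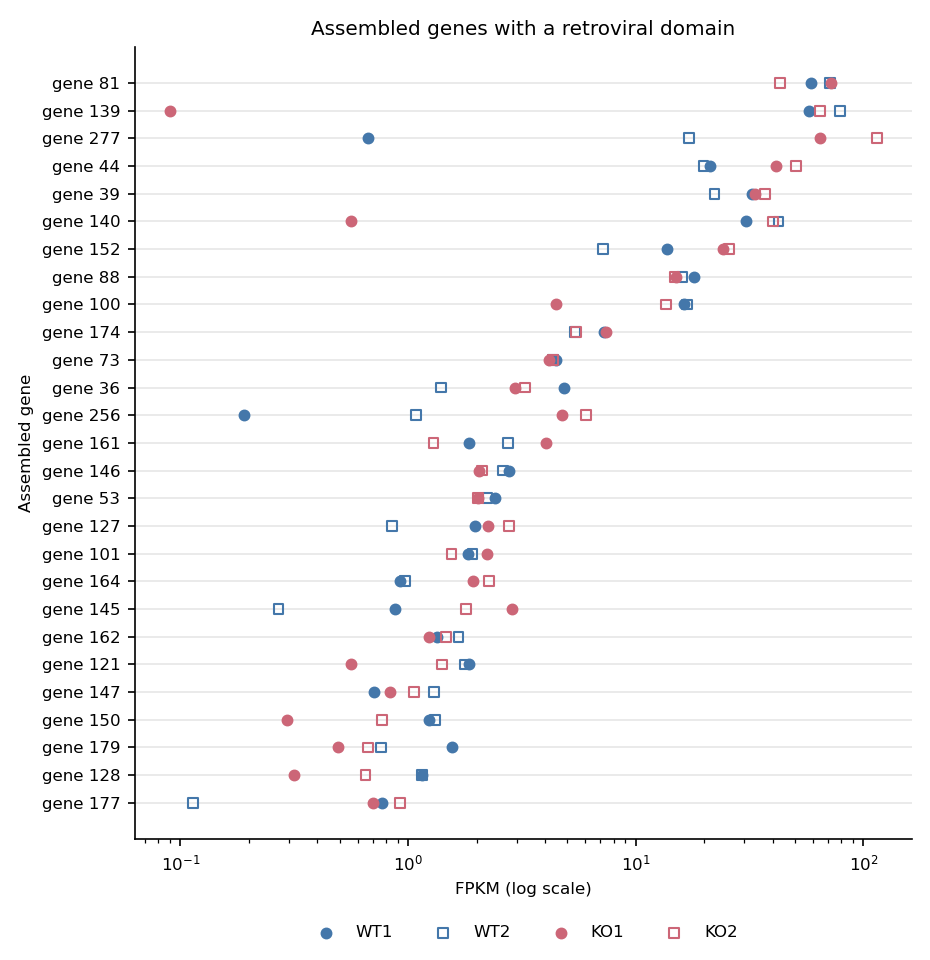
FPKM, on a log scale, of the 27 assembled genes that name a retroviral domain and passed the filter, ordered by mean, with 1 symbol per library. Gene 73 stayed between 4.16 and 4.46 in all 4 libraries, whereas genes 139, 277, 140 and 256 had the widest ranges.

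The 4 genes with betaretroviral domains had log2 fold changes between -0.16 and 0.18. Gene 53 (chr15:75209490-75216253, minus strand), with capsid, dUTPase and protease domains, starts 123 bases from BC025446 on the other strand and had 2.41 and 2.23 in WT and 2.03 and 2.04 in KO. Gene 101 (chr19:5572346-5578256, minus strand) had 1.83 and 1.92 in WT and 2.21 and 1.55 in KO. Gene 36 (chr13:119661607-119669874, plus strand), a block of 8268 bases with gag and pol domains, ranged from 1.40 to 4.84, both of them WT pools. Gene 147 (chr5:30227228-30232405, minus strand) had 0.707 and 1.30 in WT and 0.832 and 1.06 in KO, and lies 176 bases from Selenoi, a phospholipid synthesis gene on the other strand. Gene 146 (chr5:30226264-30227222, minus strand), which names reverse transcriptase domains, lies next to it and had 2.79 and 2.61 in WT and 2.06 and 2.12 in KO. The remaining gammaretroviral genes 73, 161, 162 and 174, at 1.24 to 7.40 FPKM, had overlapping pools, with log2 fold changes between -0.11 and 0.04. The LINE-1 gene 271, on chromosome X, had 3.04 and 2.88 in WT and 2.72 and 2.96 in KO.

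Genes that act on endogenous retroviruses were examined as 2 lists. Of 32 listed genes of retroviral silencing, among them Trim28, Setdb1 and Dnmt1, 29 were tested. None passed an adjusted p under 0.05 or an unadjusted p under 0.05, 6 had a log2 fold change above 0 and 23 below it, and the median was -0.06, against 0.01 over all genes tested. Of 8 listed restriction genes, which limit retroviral infection, 7 were tested, and 1 passed an unadjusted p under 0.05, against 3.29% of all genes tested that did so as higher and 3.03% as lower. This was Bst2, which tethers virus particles to the cell surface, with an FPKM of 34.2 and 62.0 in WT and of 26.0 and 17.8 in KO (log2 fold change -1.08 ± 0.35, adjusted p = 0.785). The other 6 had log2 fold changes between -0.66 and 0.26, and the median of the list was -0.35. WT2 was the highest pool for Bst2, Trim30a, Samhd1, Apobec3, Zc3hav1 and Mov10, and also for the summed macrophage genes. The part of immune cells in these values was not tested.

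The assembled genes on alternative scaffolds were of another kind. Such a scaffold uses coordinates close to those of the chromosome it replaces, so each of the 86 was compared with the annotated protein-coding genes of the table by position and strand. Of the 86, 28 covered 1 annotated gene each with a reciprocal overlap of at least 90%, on 11 scaffolds, and no such gene matched on more than 1 chromosome. The match of scaffold to chromosome rests on the coordinates alone. Gene 204, with the domain of the 30 kDa subunit of NADH dehydrogenase, matched Ndufs3, a subunit of respiratory complex I. Gene 243 with the menin domain matched Men1, gene 231 with the podoplanin domain matched Pdpn, gene 223 with the RanBP1 domain matched Ranbp1, which acts in nuclear transport, and gene 249 with the sugar transporter domain matched Slc22a12, the urate transporter of the proximal tubule.

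The annotated copy was listed at 0 in most of these pairs. Of the 28 annotated genes, 17 had 0 reads in all 4 libraries, which is 60.7%, and 25 had 3 reads or fewer in every library. Of all 22058 protein-coding genes of the table, 22.1% had 0 reads. The 28 assembled copies together held 14498 reads and the 28 annotated copies 741. Among the annotated genes listed at 0 were Ndufs3, Men1, Sf1 (a splicing factor) and Celf1 (an RNA-binding protein), which nearly every cell uses. The 3 exceptions were Vezf1, Lmbrd2 and Tmem218, with 29 to 101 reads per library on the annotated copy. Of their assembled partners, gene 255 at Lmbrd2 names an LMBR1-like membrane protein domain. Gene 218 at Vezf1 names no domain, and gene 257 at Tmem218 names a RING-variant domain. Within the 6 stretches in which at least 2 assembled genes had a partner, 20 of 29 protein-coding genes had 0 reads, against 64 of 235 within 1 Mb outside them. Of the 29, 23 were partners already counted above, so the stretches mostly recount the same genes. On the stretch of chromosome 19 that holds Men1, Sf1 and Slc22a12, 6 of 10 inside and 5 of 86 outside had 0 reads. On that of chromosome 4 with Pdpn these numbers were 3 of 4 and 25 of 27. How reads that fit both copies were counted is not given in the sources used here and was not tested. The match by position was chosen after the data had been seen.

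**Figure D3:**
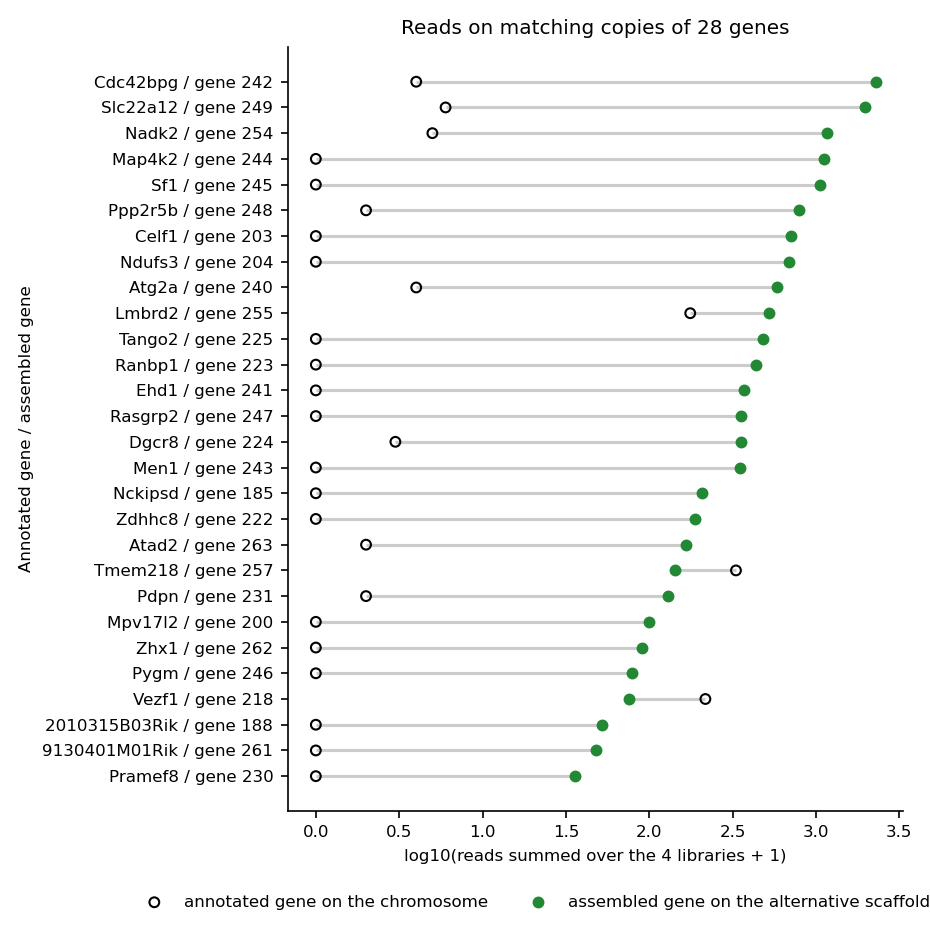
Reads summed over the 4 libraries, as log10(reads + 1), for the 28 annotated genes (open circles) and the assembled genes at the same position on an alternative scaffold (filled circles). In 25 pairs nearly all reads lie on the assembled copy, and in the pairs of Vezf1 and Tmem218 more lie on the annotated copy.

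Levels of these copies varied between pools of 1 group. Gene 204, the copy of Ndufs3, had an FPKM of 35.9 in WT1, 2.31 in WT2, 3.59 in KO1 and 3.89 in KO2, so that a single WT pool stood apart. Gene 242, the copy of Cdc42bpg, a protein kinase gene, had 5.62 and 5.56 in WT and 9.11 and 1.00 in KO. Gene 248, the copy of Ppp2r5b, a regulatory subunit of protein phosphatase 2A, had 0.74 and 8.65 in WT and 5.72 and 1.85 in KO. Gene 249, the copy of Slc22a12, had 19.4 and 10.01 in WT and 9.83 and 15.9 in KO. In none of these 4 did the groups separate. Over the 28 copies, the median ratio of the highest to the lowest pool, where none was at 0, was 4.29. Genes 242 and 248 were named after their values had been seen.

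The spread between the 2 pools of a group was compared at like levels. At a mean FPKM of 1 to 10, the median absolute log2 difference between the pools of a group, on log2(FPKM + 0.5), was 0.46 for the 37 assembled genes on alternative scaffolds, 0.38 for the 118 elsewhere and 0.18 for the 8168 annotated genes. It was 0.24 for the 13 with retroviral domains at that level, gene 256 included. The assembled genes elsewhere were shorter than annotated genes of this level, with median lengths of 1082 and 4261 bases, and so held fewer reads at the same FPKM. The part of read number in this spread was not tested.

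Some genes on alternative scaffolds did separate by group. Gene 237, which names the PCMT methyltransferase domain and has no annotated partner at 90% overlap, had 6.65 and 3.87 in WT and 0.476 and 0.619 in KO. Its log2 fold change was -2.42 ± 0.28, the lowest among those with non-overlapping pools, with an unadjusted p of 0.000512 and an adjusted p of 0.466. Gene 223, the copy of Ranbp1, had 1.86 and 3.14 in WT and 11.6 and 8.78 in KO (log2 fold change 1.85 ± 0.26, unadjusted p = 0.00125, adjusted p = 0.493). Gene 231, the copy of Pdpn, a membrane glycoprotein of podocytes and lymphatic vessels, had 1.93 and 1.33 in WT and 0.143 and 0.324 in KO (log2 fold change -1.54 ± 0.27). Gene 208, with an aftiphilin domain, had 0.406 and 2.92 in WT and 0.195 and 0.161 in KO, so that WT2 stood apart from the other 3 pools. Of the other named genes on scaffolds, 201, with the GILT domain of a lysosomal thiol reductase, had 19.2 and 29.8 in WT and 18.6 and 37.0 in KO, and 268, on an unplaced scaffold and with ubiquitin and ribosomal protein S27a domains, had 11.1 and 19.5 in WT and 20.6 and 9.73 in KO. Both had overlapping pools.

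The position of assembled genes was set against annotated genes of the same strand. Of the 191 not on alternative scaffolds, 135 were over 5 kb from any annotated gene of their strand (43 of these within 5 kb of one on the other strand), 32 lay within 5 kb upstream of one, 21 within 5 kb downstream, 1 overlapped an annotated gene on its strand and 1 on the other strand only. Of the 152 on chromosomes without a retroviral domain, 102 were over 5 kb from any annotated gene of their strand. The last of the 191 lies on a scaffold with no annotated gene. The 32 upstream ones lay close to the annotated start, at a median of 398 bases, and 25 of them were single blocks. The annotated gene was protein-coding for 24 of the 32. Gene 169 ended 234 bases before Rasd2, a GTP-binding protein gene, gene 154 ended 43 bases before Nrf1, a transcription factor of mitochondrial genes, and gene 28 ended 237 bases before Gdi2, a regulator of Rab proteins. These 3 were named after their values had been seen.

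Levels of most upstream genes were low beside the annotated gene. Their median was 10.4% of the annotated gene's FPKM where that was above 0, and 21 of these 26 lay below it. The exceptions were genes 88, at 225.4% of Pik3c3, 119, 154, 167 and 169. Gene 154 had 2.86 and 1.28 in WT and 3.74 and 2.95 in KO, close to the 2.34, 3.02, 2.38 and 2.34 of Nrf1 in WT1, WT2, KO1 and KO2. Gene 169 had 2.48 and 2.32 in WT and 0.842 and 1.30 in KO, from 6 to 17 reads per pool, and Rasd2 had 1.29 and 1.34 in WT and 0.73 and 0.93 in KO. Both were lower in both KO pools, with log2 fold changes of -0.90 ± 0.21 and -0.45. Gene 119 (chr4:12137050-12137607, plus strand), 2657 bases upstream of the RNA-binding protein gene Rbm12b1, had 0.558 and 0.417 in WT and 3.32 and 3.42 in KO. Its log2 fold change was 1.98 ± 0.17 with an unadjusted p of 0.000145 and an adjusted p of 0.466, from 4 or 5 reads in each WT pool and 31 in each KO pool. Rbm12b1 had 1.38 and 1.27 in WT and 1.19 and 0.947 in KO. The assembled gene and its neighbour thus differed in direction.

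The 21 downstream genes lay at a median of 2962 bases past the annotated end. Their median level was 26.5% of the annotated gene's where that was above 0, and 13 of these 18 lay below it. The exceptions were genes 2, 9, 48, 131 and 135, whose annotated neighbours reached at most 0.719 FPKM in any library. In the 11 pairs where both were tested, 9 had the same sign of change, with medians of 0.44 for the assembled and 0.08 for the annotated genes and a correlation across pairs of r = 0.59, given as a description of pairs that share the same 4 libraries. In the 22 upstream pairs, 14 had the same sign and r was 0.25. Gene 175 (chr9:45414132-45414738, plus strand) lies 3854 bases past the end of Fxyd2, the gamma subunit of the sodium pump of the tubule. It had 3.59 and 2.87 in WT and 8.86 and 11.3 in KO (log2 fold change 1.5 ± 0.18, adjusted p = 0.466), whereas Fxyd2 had 335.7 and 242.7 in WT and 309.6 and 338.5 in KO. The level of gene 175 was 2.17% of that of Fxyd2, and the groups overlapped for Fxyd2. Gene 175 was named after its values had been seen.

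**Figure D4:**
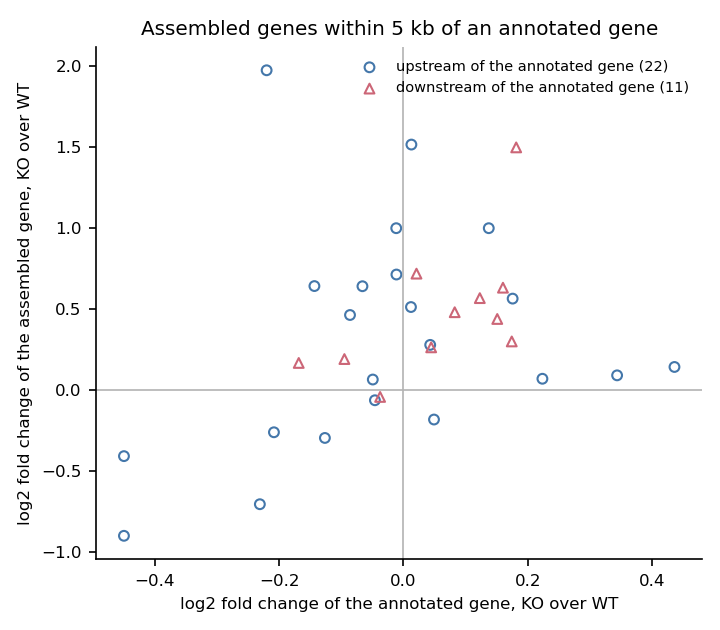
Log2 fold changes, KO over WT, of assembled genes (vertical axis) and of the annotated gene within 5 kb on the same strand (horizontal axis), for the 22 upstream and 11 downstream pairs in which both were tested. The assembled genes reach from -0.90 to 1.98, whereas the annotated genes stay between -0.45 and 0.44.

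Several short genes without a domain were higher in KO on few reads. Gene 135 (chr4:145568826-145573775, minus strand), 753 bases from the pseudogene Gm13228, had 3.06 and 3.26 in WT and 9.44 and 11.2 in KO, from 14 to 52 reads. Its log2 fold change was 1.56 ± 0.14 (unadjusted p = 0.000143, adjusted p = 0.466). Gene 272 (chrX:33841493-33846658, minus strand) had 0.852 and 0.637 in WT and 3.77 and 3.88 in KO, from 4 or 5 reads in WT and 23 in each KO pool. Gene 104 (chr2:43195679-43196523, plus strand) had 0.463 and 0.433 in WT and 7.42 and 1.83 in KO. Its WT pools held 3 reads each, the limit of detection, and KO1 alone gave most of the difference. Gene 113 (chr2:161387414-161388994, minus strand) had 0.498 and 0.155 in WT and 4.14 and 0.985 in KO, again with KO1 highest. At the other end, gene 25 (chr12:64616556-64616789, minus strand) had 9 reads in WT1 and 0 in the other 3 pools.

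Assembled genes that overlap each other limit what their levels mean. There were 22 overlapping pairs, of which 19 lay on opposite strands. These pairs held 44 assembled genes. Of the 17 assembled genes with 0 reads in all libraries, 16 were in such a pair. Other pairs on opposite strands had reads on both members, such as genes 193 and 198 with 136 and 12 reads in WT1. In 8 cases the whole of an assembled gene lay inside a single block on the other strand, and all 8 had 0 reads. The outer gene also had 0 reads where it was gene 49, 122, 191 or 197, and outer gene 16 had 2. Genes 191 and 197 span the same bases, so that each was counted inside the other. Outer gene 38 had 1344 reads. Gene 41, whose 854 bases lie inside gene 44, had 0 reads while gene 44 had 11478 over the 4 libraries, and gene 94 inside gene 88 had 0 against 6279. Genes 49 and 54, both naming the matrix domain on opposite strands of chr15:82358447-82368106, had 0 each. Whether reads that fit both strands were left out is not given in the sources used here and was not tested. For the 16 with 0 reads in such pairs, whether the listed level of 0 reflects absence was not tested either.

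Over all of them, the comparison of KO with WT gave no assembled gene past the threshold. With limma on log2(FPKM + 0.5), 0 of the 214 tested assembled genes had an adjusted p under 0.05, as for all 15414 genes tested (0%), and limma with voom weights on recovered reads also gave 0. At an unadjusted p under 0.05, 32 of the 214 (15%) were higher in KO, against 3.29% of all genes tested, and 11 (5.14%) were lower, against 3.03%. The lowest adjusted p of any assembled gene was 0.466. Assembled genes entered the list through reads, which annotated genes did not need, so these percentages compare unlike sets. The part of this in the counts was not tested. The median log2 fold change of the 214 was 0.09, against 0.01 over all genes tested, with 122 above 0 and 92 below. The higher ones were spread over the kinds described, with 6 of 27 retroviral genes, 9 of 56 on alternative scaffolds and 19 of 126 without a domain. Lower were 2 (7.41%), 5 (8.93%) and 4 (3.17%) of these. The kinds overlap, so that some genes are counted in more than a single kind. With voom, 30 of the assembled genes were higher and 13 were lower, against 3.3% and 3% of all genes tested in that fit. Without the alternative scaffolds, 23 were higher and 6 were lower, against the 3.29% and 3.03% of all 15414 genes tested. On chromosomes alone, 23 of 155 (14.8%) were higher and 5 (3.23%) were lower. The counts moved with single pools, to 49 higher without WT1 (6.22% of all genes tested in that fit) and 21 without KO1 (2.13%), and to 19 lower without WT2 (2.18%) or without KO2 (2.52%), and the median log2 fold change was -0.00441 without WT2.

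**Figure D5:**
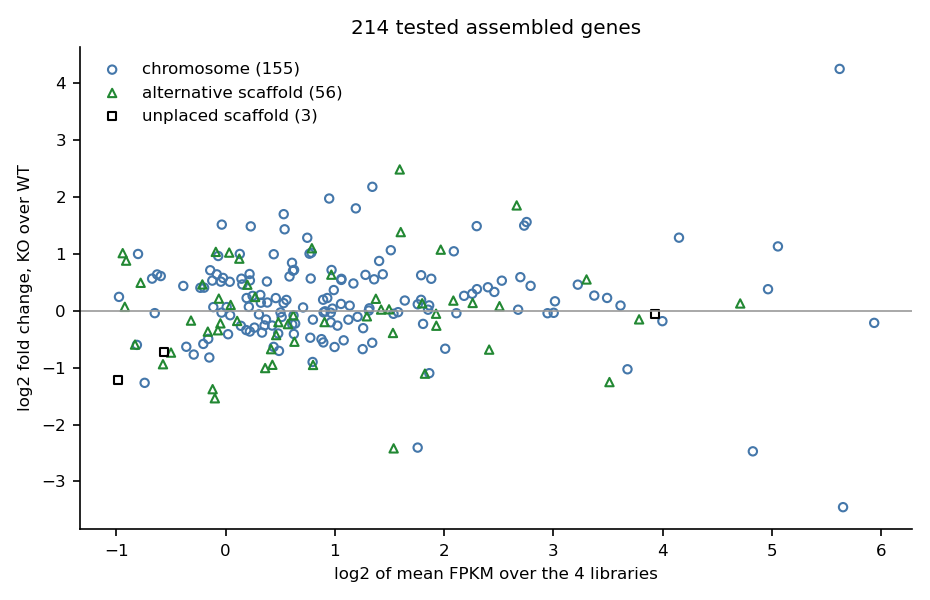
Log2 fold change, KO over WT, against the log2 of mean FPKM for the 214 tested assembled genes, with separate symbols for chromosomes, alternative scaffolds and unplaced scaffolds. The point at the upper right is gene 277 at 4.25 and those at the lower right are genes 139 and 140 at -3.45 and -2.47.

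By size, 50 assembled genes reached an FPKM of 5 in some library. In 12 of the 50 (24.0%) both KO pools lay above both WT pools with means at least 2-fold apart, against 0.836% of the 8617 genes of the table at that level, and in 3 (6.00%) both lay below, also against 0.836%. These counts are a description, since 9 of the 12 reached that level in KO alone and the 3 in WT alone. When FPKM had to average 5 or more in the 4 libraries, a level set after the data had been seen, 6 of 32 were higher (44, 135, 152, 175, 223 and 277), against 0.62% of 7901 genes, and 0 were lower, against 0.532%. Of these 6, 3 (135, 175 and 223) still had a WT mean under 5 and reached the level through KO, so this count too is a description. The 12 were genes 38, 44, 48, 104, 135, 152, 175, 205, 211, 223, 256 and 277, of which 4 held retroviral domains and 4 lay on alternative scaffolds. The 3 lower ones were 126 and, on alternative scaffolds, 225 and 237. Gene 225, the copy of Tango2, had 5.20 and 4.8 in WT and 1.72 and 2.44 in KO (log2 fold change -1.10 ± 0.18). Gene 126 (chr4:150709634-150723965, plus strand), which has no named domain, had 4.44 and 5.84 in WT and 1.79 and 2.49 in KO. Gene 38 (chr13:55184448-55189231, minus strand), a block of 4784 bases without a domain, had 2.93 and 2.30 in WT and 5.95 and 5.84 in KO. Gene 48 had 3.62 and 1.37 in WT and 8.13 and 6.55 in KO, gene 205, with a dual specificity phosphatase domain, had 2.55 and 2.14 against 5.39 and 5.58, and gene 211, with phosphoglucomutase domains, had 1.69 and 1.18 against 3.45 and 5.83. The spread between pools of 1 group, given above, was also larger for assembled than for annotated genes, and its part in these counts was not tested. Nor was the part of their assembly from reads, which annotated genes did not need. Without KO2, and at an FPKM of 5 in some remaining library, 8 of 44 were lower and 10 higher, against 1.47% and 1.35% of 8516 genes. The p-values measure only the spread between these pools.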

How the data were processed

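RNA-sequencing of 4 libraries was analysed, 2 WT and 2 KO. A single table was used, in which the authors deposited FPKM with positions, lengths and domain descriptions. The submitters' processing notes name HISAT2 2.0.5 and mm10 (GRCm38.p6). The assembler, the counting tool and the use of strand are not given in the sources used here. Reads were recovered from FPKM and length, and came out whole for 100% of values (tolerance 0.01). Reads on genes ranged from 16045724 to 16927742 per library. Counts of 3 or fewer were taken as the limit of detection, for counting error only. Values as log2(FPKM + 0.5) were fitted with limma 3.58.1 in R 4.3.3 (eBayes with trend, two-sided, Benjamini-Hochberg adjustment) for 15414 genes, those averaging 0.5 FPKM or more. Python 3.11.15, scipy 1.17.1 and pandas 2.3.3 were used elsewhere. Named genes were the 12 most abundant, the 8 highest and the 8 lowest by log2 fold change, and all retroviral or Y-linked ones that passed this filter. The members and lists were chosen with earlier results of these data known. Alternatives were other pseudocounts and filters, quantile normalization, voom weights on the recovered reads, a replicate block and each pool left out. Fits were tested on simulated data, and the outcome of that is not given here. Positions are those of GRCm38, where 97.1% of the 53706 genes shared with GENCODE M21 had identical coordinates.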

Additional observations from a re-analysis of the deposited data

How the results depend on the processing

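The samples share replicate numbers between groups, but WT1 and KO1, and likewise WT2 and KO2, did not deviate together (correlation -0.00166 across genes), and the numbers were not taken as pairs. A fit with the replicate number as a block left 0 assembled genes past the adjusted threshold, with 39 higher and 12 lower at an unadjusted p under 0.05 (3.53% and 2.52% of all genes tested in that fit) and a median log2 fold change of 0.09. In every alternative the count past the adjusted p was 0, and the lowest adjusted p of a named gene was 0.298. At an unadjusted p, leaving out 1 pool gave 21 to 49 higher and 10 to 19 lower (2.13% to 6.22% and 2.18% to 4.94% of all genes tested), and a median log2 fold change of -0.00441 to 0.25. With a mean FPKM of at least 1, 6 were lower (2.92% of all genes tested). Without the alternative scaffolds, an alternative chosen after seeing the data, also 6 were lower, against the 3.03% of all 15414 genes tested. At 2-fold without overlap, 34 of 211 were higher and 14 lower at an FPKM of at least 1 (1.62% and 1.91% of all genes), 6 and 0 of 23 at an FPKM of at least 10 (0.834% and 0.656%), 4 and 1 of 50 for a fold of at least 4 (0.128% and 0.197%), and 6 and 0 of 32 at a mean FPKM of at least 5. In all 2-fold counts a gene could reach the level through 1 group alone, so they are a description. Leaving out 1 pool gave 10 to 14 higher and 4 to 8 lower (0.738% to 2.81% and 0.857% to 1.76% of all genes), and leaving out the alternative scaffolds gave 8 higher and 1 lower of 35, against 0.836% of all genes in each direction. Within 1 kb in place of 5 kb, 21 assembled genes were near an annotated gene of their strand. At a reciprocal overlap of 50%, 52 annotated partners were found and 27 had no read, but 16 of the 53 assembled genes then matched on more than 1 chromosome. Of the 45 named genes, 28 kept the sign of their log2 fold change in all alternatives that could be run for them, though gene 139 went to -0.061 without KO1. Genes 25 and 142 were at 0 without WT1. Quantile normalization gave 0.0176 for gene 101 and 0.00378 for gene 147. Leaving out 1 pool gave ranges of -0.56 to 0.93 for gene 36, -0.58 to 0.16 for gene 81, -0.21 to 0.19 for gene 101, -5.10 to 0.16 for gene 140, -0.32 to 0.26 for gene 147, -0.63 to 0.72 for gene 161, -0.23 to 0.0102 for gene 162, -0.18 to 0.22 for gene 174, -0.36 to 0.62 for gene 201, -3.10 to 0.60 for gene 204, -0.61 to 0.31 for gene 249, -0.57 to 0.47 for gene 268, -1.40 to 0.67 for gene 273, -0.017 to 1.13 for gene 274 and -0.36 to 0.75 for gene 275. Gene 140 turned positive without KO1 and gene 204 without WT1. The causes were not tested. With 1 pool left out, the lone pool is assumed to vary like the other group. Genes with few reads limit these results, since 29 assembled genes had 3 reads or fewer in every library. A mean FPKM of at least 1 left out 8 of the named genes. The planned search for a poly(A) signal near the 3' ends was not run, since the only sequence used here was that of the promoter windows.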
